A study of Rattus norvegicus with 42 samples.

Results

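The genes described here mark B lymphocytes, and they were followed in the whole blood of rats that did or did not have a stroke and did or did not receive tissue plasminogen activator (tPA). Of 9 genes on the list, Cd79a, Cd79b, Ms4a1, Cd22, Cr2, Fcer2, Bcl11a, Vpreb3 and Pax5, 7 have at least 1 probe set that the annotation of the array names after them, 13 probe sets of 31042 tested. Cd79a and Pax5 have none in the annotation and were not analysed here. A probe set is a group of short array probes against 1 transcript, and each gene stands below with its brightest probe set unless another is named.

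Blood was drawn at 24 h from 42 male Sprague-Dawley rats of 280 to 350 g, 6 in each of 7 groups. Of the groups without MCAO or tPA, 1 was naive and 1 received anesthesia, and the sources used here describe neither further. Blood was drawn under isoflurane, with no exception named. In the reperfused-MCAO group the middle cerebral artery was occluded with a suture for 2 h and then opened, and in the permanent-MCAO group the suture stayed in place. Each kind of occlusion was also done in rats given 3.3 mg/kg recombinant human tPA intraperitoneally at 3 h, and a last group had tPA and no MCAO. No group is described as sham-operated, and occlusion and surgery cannot be told apart. Whether the rats with tPA and no MCAO were anesthetised is not stated in the sources used here, and the main model counts them as anesthetised, as it does every group but naive. Nothing states that arrays of a group shared an animal or were pooled, and p-values measure the spread between these arrays.

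B cells recognise antigen through a surface immunoglobulin that signals through the paired chains Cd79a and Cd79b. Co-receptors tune that signal: Cr2 binds complement fragments on the antigen and strengthens it, whereas Cd22 binds sialic acid and dampens it. Ms4a1 encodes CD20, the target of B cell depleting antibodies, and Fcer2 encodes CD23, the low-affinity receptor for immunoglobulin E that mature circulating B cells carry. Pax5 and Bcl11a are transcription factors needed to make B cells, and Vpreb3 belongs to the proteins that help assemble the receptor in the endoplasmic reticulum. Bcl11a is also used by other blood cells. In whole blood, fewer B cells and less RNA of these genes per B cell cannot be told apart.

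RefSeq promoters of the GRCr8 assembly, 300 bases that end shortly after the start of the gene, were given for 4 of the measured genes: Cr2, Cd22, Bcl11a and Vpreb3. They are shown for Cr2, which fell in rats with MCAO, for Cd22, which fell with MCAO among tPA-treated rats, and for Vpreb3, the gene near the limit of detection. Capitals mark matches, on either strand, to the octamer ATGCAAAT, the PU.1 core GAGGAA or the E-box CAGGTG.
Cr2, chr13:109244457-109244756, minus strand: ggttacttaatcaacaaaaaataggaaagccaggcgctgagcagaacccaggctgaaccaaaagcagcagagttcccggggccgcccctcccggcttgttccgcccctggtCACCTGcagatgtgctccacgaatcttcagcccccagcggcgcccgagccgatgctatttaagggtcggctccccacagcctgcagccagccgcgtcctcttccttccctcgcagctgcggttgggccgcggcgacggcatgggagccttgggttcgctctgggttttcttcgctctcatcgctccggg
Cd22, chr1:95259681-95259980, minus strand: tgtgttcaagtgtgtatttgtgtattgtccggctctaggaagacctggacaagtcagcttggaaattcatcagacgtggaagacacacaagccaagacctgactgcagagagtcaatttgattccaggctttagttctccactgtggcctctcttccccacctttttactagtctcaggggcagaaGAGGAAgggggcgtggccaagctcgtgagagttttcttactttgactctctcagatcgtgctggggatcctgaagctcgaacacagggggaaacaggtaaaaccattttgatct
Vpreb3, chr20:12718177-12718476, minus strand: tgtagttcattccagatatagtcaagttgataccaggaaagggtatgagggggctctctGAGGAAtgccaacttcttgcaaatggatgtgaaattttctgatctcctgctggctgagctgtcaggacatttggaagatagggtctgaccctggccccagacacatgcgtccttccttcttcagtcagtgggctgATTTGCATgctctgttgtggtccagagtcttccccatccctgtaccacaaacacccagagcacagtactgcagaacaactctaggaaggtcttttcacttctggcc
The Cr2 promoter held 1 E-box, at -139 to -134 from the start. The Cd22 promoter held 1 PU.1 core, at -64 to -59, and that of Bcl11a held 1 at 7 to 12. The Vpreb3 promoter held the octamer at -56 to -49 and a PU.1 core at -191 to -186. Among 33469 rat promoters of this length, 1.78% held the octamer, 27.6% the PU.1 core and 18.8% the E-box, so a PU.1 core or an E-box is common in any set of promoters. An EBF half-site pair, CCCNNGGG, found in 12.4% of promoters, was in none of the 4.

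The values are log2 expression levels after GC-RMA, and probe sets differ in their response, so levels are compared between rats and not between genes. The median of an array was 3.05 to 3.26, and 13232 probe sets had a mean of at least 4 over the 42 arrays. Of the 13 probe sets, 12 passed that level. The exception was Vpreb3, with a mean of 3.32 and 38 of 42 arrays under 4, and small differences of a gene this dim carry little information. As a check of the labelled tissue, the mean of 5 red cell genes was 12.1 to 13.2 and that of 5 platelet genes 10.1 to 11.2 in the groups, both above the level of 4. One feature of the tPA, no MCAO group touches the results below. Its arrays had a hybridization control signal, the mean of 14 probe sets for RNAs added to each sample, of 11.2 ± 0.747 (SD, n = 6), against 12.2 ± 0.221 in the anesthesia group and group means of 11.9 to 12.2 elsewhere.

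The Cd79b and Ms4a1 genes, which encode a chain of the B cell receptor and CD20, were the most alike of the set. Cd79b ranged from 9.98 to 11.76 (median 10.39) in naive rats, from 10.001 to 11.01 (median 10.43) with anesthesia, and from 10.43 to 11.10 (median 10.64) with tPA and no MCAO. It ranged from 8.89 to 10.92 (median 10.35) with reperfused-MCAO and from 9.37 to 10.92 (median 10.11) when tPA was added. With permanent-MCAO it ranged from 9.35 to 11.15 (median 10.19), and with permanent-MCAO and tPA from 8.67 to 10.52 (median 9.55). The last group had the lowest mean, and every pair of groups compared overlapped. For Ms4a1 the group means were 10.67 ± 0.584 in naive rats, 10.52 ± 0.407 with anesthesia, 10.58 ± 0.390 with tPA and no MCAO, 10.26 ± 0.663 with reperfused-MCAO, 10.29 ± 0.770 with reperfused-MCAO and tPA, 10.27 ± 0.627 with permanent-MCAO, and 9.82 ± 0.562 with permanent-MCAO and tPA (SD, n = 6 each). The order ended with the same group as for Cd79b. For each of the 7 genes the gap between neighbours in the order of group means was smaller than the SD of the lower group.

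Fcer2 had the widest spread among rats. It ranged from 10.10 to 11.58 (median 10.69) in naive rats, from 9.58 to 11.38 (median 10.23) with anesthesia, and from 10.32 to 12.001 (median 11.14) with tPA and no MCAO. With reperfused-MCAO it ranged from 8.35 to 10.89 (median 9.95) and from 8.31 to 11.17 (median 10.17) with tPA added. With permanent-MCAO it ranged from 9.32 to 10.93 (median 9.82) and from 8.46 to 10.56 (median 9.31) with tPA added. The 4 MCAO groups had the 4 lowest means, and all of them held rats at or above the lowest rat without MCAO. Cr2 ranged from 7.19 to 8.39 (median 8.12) in naive rats, from 7.32 to 8.95 (median 7.64) with anesthesia, and from 7.44 to 8.25 (median 7.71) with tPA and no MCAO. It ranged from 5.88 to 7.85 (median 7.01) with reperfused-MCAO and from 6.26 to 8.49 (median 7.46) with tPA added. With permanent-MCAO it ranged from 6.86 to 8.38 (median 7.24) and from 5.92 to 7.73 (median 7.22) with tPA added. Cr2 had its highest mean in naive rats, as Ms4a1 did, and it is the 1 gene whose lowest mean was in the reperfused-MCAO group.

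Cd22 means ran from 7.40 ± 0.262 with tPA and no MCAO to 6.70 ± 0.583 with permanent-MCAO and tPA, and Bcl11a means from 8.66 ± 0.317 to 7.76 ± 0.688 in the same groups (SD, n = 6). The anesthesia mean of Bcl11a, 8.15 ± 0.606, lay below those of both MCAO groups without tPA, 8.33 ± 0.727 and 8.21 ± 0.554. Vpreb3 means lay between 3.04 ± 0.190 with permanent-MCAO and tPA and 3.72 ± 0.688 with anesthesia, all within the range where the array resolves little. The plot of the 7 genes shows how much the groups overlap.

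**Figure D1:**
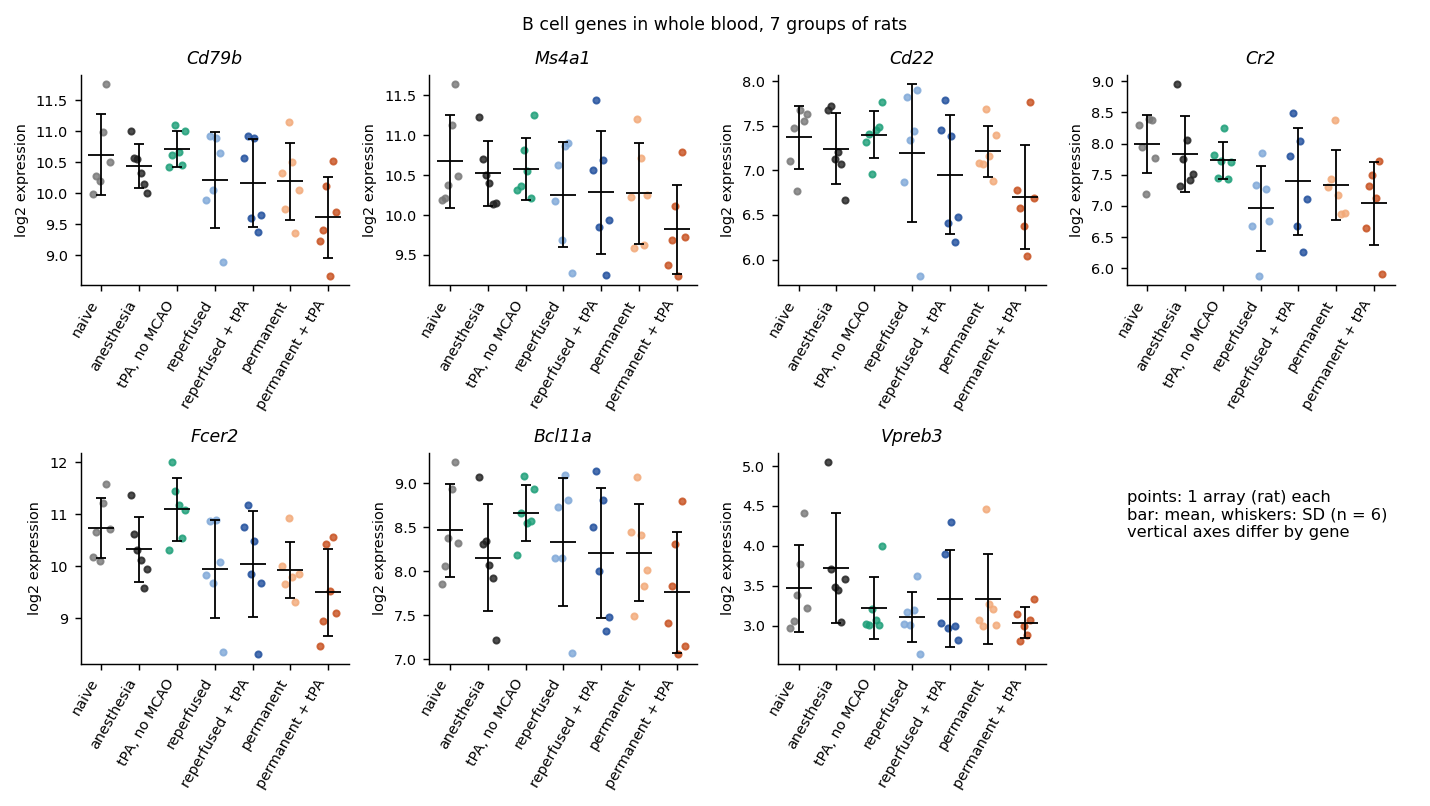
Log2 expression of 7 B cell genes (vertical axes, scaled separately) in 7 groups of 6 rats. Each point is 1 array, the bar is the mean and the whiskers the SD. Permanent-MCAO with tPA had the lowest mean for 6 genes, with the points of the groups overlapping throughout.

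Whether B cell genes differ in rats with a stroke was tested first over both tPA states, as the mean of the difference from anesthesia in untreated rats and the difference from the tPA, no MCAO group in treated rats. Fcer2, Cr2 and Cd79b fell with MCAO. Fcer2 fell by 0.86 on the log2 scale (SE 0.263, adjusted p = 0.0361), a 1.81-fold lower level. Cr2 fell by 0.60 (SE 0.214, adjusted p = 0.0765), 1.52-fold, and Cd79b fell by 0.53 (SE 0.213, adjusted p = 0.125), 1.44-fold. The calls use limma with an unadjusted p of at most 0.05 and a fold of at least 1.2, and Fcer2 alone among the 7 also passed an adjusted p of 0.05, as 7.86% of all probe sets did. So 3 of 7 genes and 7 of 13 probe sets were called, all lower, where 15.4% of all probe sets were called, 9.39% lower. Most of these genes are bright, and of the probe sets with a mean of at least 4 the share called lower was 18.6%. The 7 genes move together among rats, and Cr2 and Fcer2 have several probe sets each. Neither count is therefore one of separate observations, nor is a direction that the genes share.

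The genes that missed the threshold were also negative. Ms4a1 differed by -0.39 (95% interval -0.81 to 0.02), Cd22 by -0.30 (-0.66 to 0.05), Bcl11a by -0.28 (-0.71 to 0.15) and Vpreb3 by -0.26 (-0.62 to 0.09). The median of the 7 genes was -0.39, and that of all probe sets with a mean of at least 4 was -0.09, of which 62.8% were negative. Further probe sets of the called genes gave similar differences. The other Fcer2 probe set, 1369872_a_at, fell by 0.91 (adjusted p = 0.0514). Of 4 other Cr2 probe sets, 1385700_at fell by 0.65, 1381327_a_at by 0.62 and 1392233_at by 0.49, and 1381328_at differed by -0.31 without being called. The other Bcl11a probe set, 1383506_at, differed by -0.38 (adjusted p = 0.301).

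These differences rest in part on the tPA, no MCAO group. Without that group, which leaves the comparison of untreated rats, Cr2 alone of the 7 was called (-0.69, SE 0.320, adjusted p = 0.329), in a comparison that called 10.6% of all probe sets. Fcer2 then differed by -0.39 and Cd79b by -0.23, and Bcl11a turned to 0.12. Among tPA-treated rats only, 4 genes fell, with 22.7% of all probe sets called. Fcer2 fell by 1.33 (adjusted p = 0.0511), Cd79b by 0.82 (0.079), Bcl11a by 0.68 (0.133) and Cd22 by 0.57 (0.137), so none passed an adjusted p of 0.05. Cr2 differed there by -0.51 and was not called. Both settings were chosen after the data were seen, and the test of their difference is the interaction given below. When the tPA, no MCAO rats were counted as not anesthetised, none of the 7 was called in limma, and 7.82% of all probe sets were. The differences were then -0.65 for Fcer2 (SE 0.401), -0.52 for Cr2 (SE 0.327) and -0.44 for Cd79b (SE 0.325), each with a larger standard error than in the main coding.

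**Figure D2:**
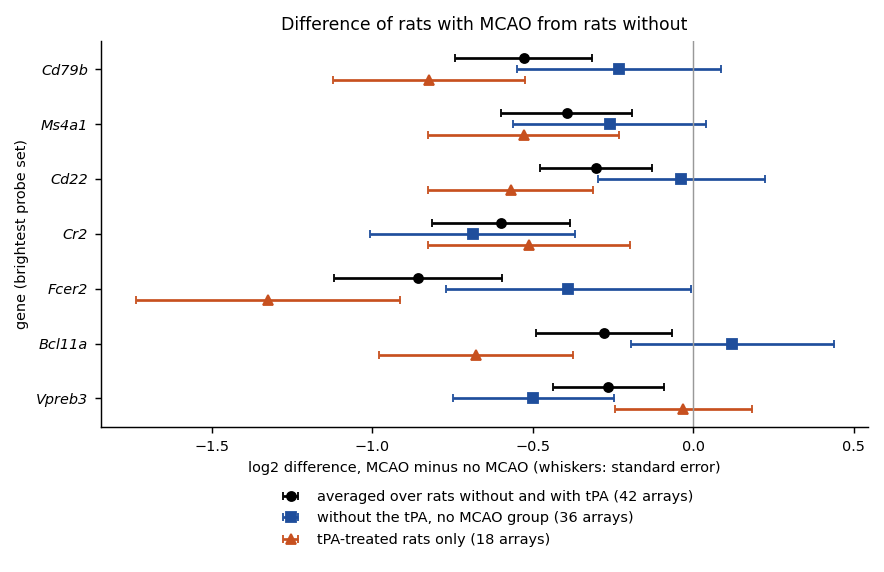
Log2 difference of rats with MCAO from rats without (horizontal axis) for each gene (vertical axis), with its standard error. Circles are the average over both tPA states, squares leave out the tPA, no MCAO group and triangles use tPA-treated rats only. Fcer2 moves from -1.33 to -0.39 between the last and the second setting, and Cr2 from -0.51 to -0.69.

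Split by the kind of occlusion, both groups without tPA were set against the same anesthesia rats, so their differences share a control. At the threshold for comparisons of 2 groups, an unadjusted limma p of at most 0.01, none of the 7 genes was called in either, where 6.00% of all probe sets were called for reperfused-MCAO and 2.78% for permanent-MCAO. Cr2 had the largest difference in both. With reperfused-MCAO, 7.84 ± 0.608 with anesthesia stood against 6.96 ± 0.682, a difference of -0.88 (95% interval -1.66 to -0.09, adjusted p = 0.268, exact permutation p = 0.0346). With permanent-MCAO the difference was -0.50 (95% interval -1.21 to 0.21, exact permutation p = 0.165). Vpreb3 differed by -0.61 with reperfused-MCAO (exact permutation p = 0.0476), from values mostly under 4. Fcer2 differed by -0.38 and -0.40 in the respective groups, Ms4a1 by -0.27 and -0.25, and Cd79b by -0.22 and -0.25. Cd22 and Bcl11a lay close to 0 with intervals that reach -0.79 and 1.00, so changes of that size cannot be set aside with 6 rats a group. Anesthesia against naive gave no call among the 7 genes, with 0.821% of all probe sets called, and differences from -0.42 for Fcer2 to 0.25 for Vpreb3. In each comparison in which none of the 7 was called, the methods' linear model without moderation called 0 as well. Of these comparisons, those against anesthesia for reperfused-MCAO and for tPA without MCAO had 1 gene at an unadjusted p under 0.05, and the others 0.

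Averaged over rats without and with MCAO, tPA gave no call among the 7 genes, where 11.95% of all probe sets were called. The differences ran from -0.27 for Vpreb3 to 0.30 for Fcer2 (95% interval -0.23 to 0.83), with a median of -0.02. Signs were mixed between settings. Without MCAO, Fcer2 averaged 11.10 ± 0.611 in rats given tPA against 10.33 ± 0.622 in anesthesia rats, a difference of 0.77 (95% interval 0.02 to 1.52, adjusted p = 0.150, exact permutation p = 0.0584) that was not called. Bcl11a differed by 0.51 and Cd79b by 0.28, and Vpreb3 by -0.50. None of the 7 was called, in a comparison that called 13.7% of all probe sets, and the median of 0.15 stood beside 0.24 for all probe sets with a mean of at least 4. Without anesthesia replicate 1, Fcer2 differed by 0.98 and was called. That rat had the highest Fcer2 level of its group, so leaving it out raises the difference by arithmetic alone.

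With permanent-MCAO the difference with tPA was negative for all 7 genes, and none was called. Cd79b differed by -0.58 (95% interval -1.36 to 0.20, exact permutation p = 0.156), Cd22 by -0.51 (95% interval -1.07 to 0.05, exact permutation p = 0.0844), Bcl11a and Ms4a1 by -0.45 each, Fcer2 by -0.43, and Cr2 and Vpreb3 by -0.30 each. The median was -0.45 beside -0.01 for all probe sets with a mean of at least 4, and 0.322% of all probe sets were called. The 7 genes move together among rats, so their shared direction is not 7 separate observations. Without permanent-MCAO with tPA replicate 5, Cd22 differed by -0.72 and was called. That rat had the highest level of 6 of the genes in its group, Cd22 among them. Leaving it out makes the difference more negative by arithmetic alone, so this call adds no support.

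With reperfused-MCAO the genes scattered around 0, and none of the 7 was called where 0.722% of all probe sets were. Cr2 differed by 0.44 (95% interval -0.51 to 1.38, exact permutation p = 0.340) and Cd22 by -0.24, with a median of 0.03. The difference between the tPA effects, reperfused minus permanent, was positive for all 7 genes, from 0.27 for Cd22 to 0.74 for Cr2 (SE 0.557). None of these was called, and 0.296% of all probe sets were. Their intervals reached from below 0 to 1.27 or more, so an opposite response to tPA in both kinds of occlusion was neither shown nor bounded closely.

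**Figure D3:**
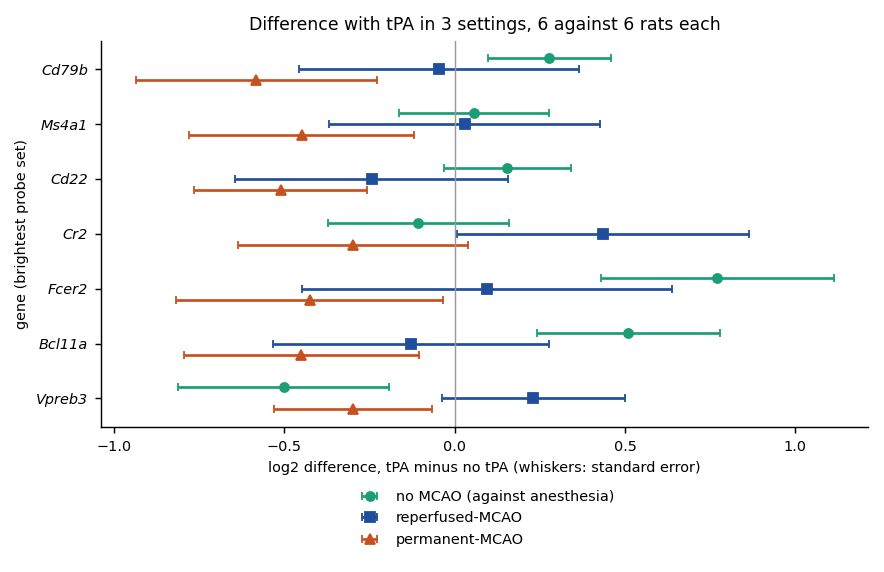
Log2 difference of rats given tPA from rats not given it (horizontal axis) for each gene (vertical axis), with its standard error, in rats without MCAO, with reperfused-MCAO and with permanent-MCAO. All triangles, permanent-MCAO, lie below 0, whereas circles and squares fall on both sides.

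Whether the response to tPA depends on stroke was tested as an interaction, the tPA difference with MCAO minus that without. It equals the MCAO difference in treated rats minus that in untreated rats. None of 7 genes and none of 13 probe sets was called, where 21.03% of all probe sets were. Fcer2 gave -0.94 (95% interval -1.999 to 0.13, adjusted p = 0.221), Bcl11a -0.80 (adjusted p = 0.198), Cd79b -0.59 and Cd22 -0.53. Cr2 gave 0.18 and Vpreb3 0.47. The median of -0.53 stood beside -0.25 for all probe sets with a mean of at least 4. Leaving out 1 array at a time, Bcl11a was called lower in 7 of 42 cases, with values from -0.98 to -0.61 over all cases. Without reperfused-MCAO replicate 6, Cd22, Bcl11a and Fcer2 were called lower. That rat had the lowest level of 6 of the genes in its group, these among them. Leaving it out makes their interaction more negative by arithmetic alone, so these calls add no support.

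Much of the spread within groups was shared by the genes. Over the 42 arrays Pearson's r between pairs of the 7 genes ran from 0.50 to 0.94 (21 pairs, median 0.73), and after group means were removed from 0.52 to 0.94 (median 0.71). The closest pair was Cd79b and Ms4a1, r = 0.94, and Vpreb3 and Fcer2 had the lowest, 0.50. These are descriptions, since the genes were read from the same RNA on the same arrays. Spearman's rho over the 42 arrays ran from 0.50 to 0.95. Some rats stood out in most or all of the genes. Permanent-MCAO replicate 3 was the highest of its group in all 7 genes, by a mean of 0.92 over the group means. Reperfused-MCAO with tPA replicate 2 and anesthesia replicate 1 were the highest in 6 of 7, by 0.92 and 0.87. At the other end, reperfused-MCAO replicate 6 was the lowest of its group in 6 of 7 and deviated by -1.03, and reperfused-MCAO with tPA replicate 5 in 6 of 7, by -0.96. These deviations are larger than the distance between the highest and the lowest group in the mean of the 7 genes, 8.49 with tPA and no MCAO and 7.64 with permanent-MCAO and tPA. The SD of that mean within groups was 0.524.

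**Figure D4:**
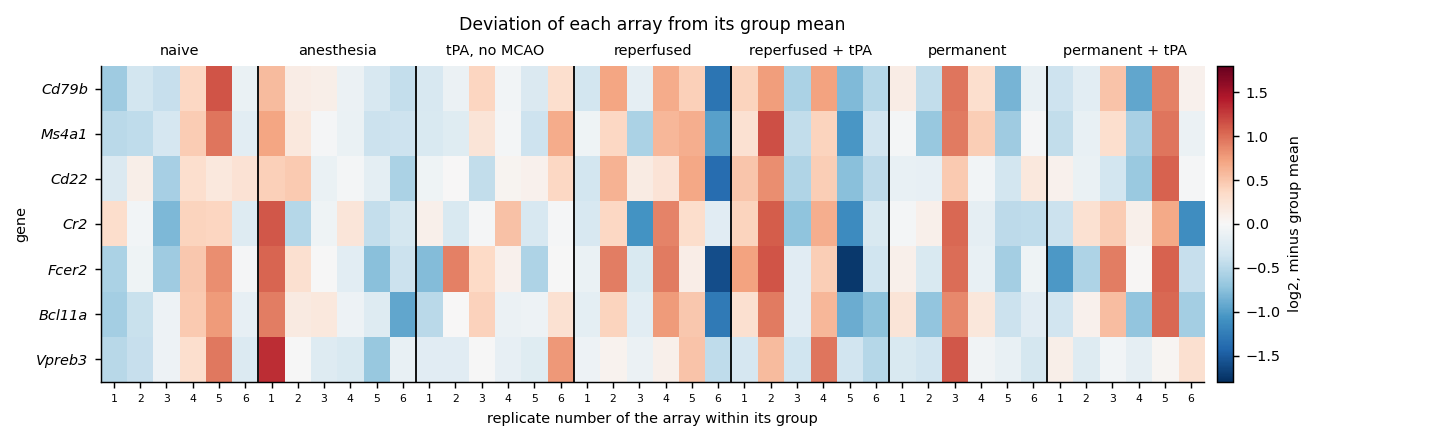
Deviation of each array from the mean of its group, in log2 units (color), for 7 genes (rows) and 42 arrays (columns, by group and replicate number). Columns tend to have 1 color from top to bottom, as in permanent-MCAO replicate 3, which is above its group mean in all 7 genes.

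A search of 7960 other genes with a mean of at least 4 for the pattern most like these genes gave Fcrla first, with a mean r of 0.84 over the 7 genes and 42 arrays. Fcrla encodes an Fc receptor-like protein of B cells. It was followed by Bank1, a B cell scaffold protein with ankyrin repeats (0.83), the transcription factor Mef2c (0.82), the glycosyltransferase B3gnt5 (0.82), Cd83, Ighvl1, the MHC class II chain RT1-Da, Tmbim1, Vav2 and Tctn1 (0.81 to 0.82 for the others). After group means were removed, Fcrla again led, with 0.84, and 8 of the 10 names were the same, with Gga2 (0.82) and Fcmr (0.81) in place of Tmbim1 and Tctn1. Fcrla, Bank1 and Fcmr also stand on the lists below.

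Other B cell genes were read in the same fits. Of 9 measured surface and survival genes, 5 fell with MCAO averaged over both tPA states and none rose, with a median of -0.32, where 15.4% of all probe sets were called. Cd40, the receptor through which T cells help B cells, fell by 0.78 (adjusted p = 0.0101). Fcrla fell by 0.54 (adjusted p = 0.0663) and Fcmr, the receptor for immunoglobulin M, by 0.47 (adjusted p = 0.176). In untreated rats against anesthesia 0 of the 9 were called with either kind of MCAO. Cd40 differed there by -0.80 with reperfused-MCAO and -0.85 with permanent-MCAO, Fcrla by -0.18 and -0.24, and Fcmr by 0.02 and -0.15. Of 5 measured transcription factors, 2 fell: Pou2f2, the octamer-binding factor Oct-2, by 0.58, and Ebf1, an early B cell factor, by 0.49. Neither was called in untreated rats at the stricter p of at most 0.01. Pou2f2 differed there by -0.37 with reperfused-MCAO and -0.63 with permanent-MCAO, and Ebf1 by -0.58 and -0.35. Irf8, a factor that B cells share with myeloid cells, was not called in any comparison. Of 8 kinases and adaptors of the receptor, 3 rose and 1 fell with MCAO averaged over both tPA states. Syk rose by 0.52 and Lyn by 0.51 (adjusted p = 0.00671 for both), and Dapp1 by 0.45 (adjusted p = 0.0130), whereas Bank1 fell by 0.40 (adjusted p = 0.167). The adaptor Blnk, at -0.36, and the kinase Blk, at -0.33, were not called. Syk and Lyn are kinases that myeloid cells use as well. Against anesthesia, Lyn differed by 0.99 with reperfused-MCAO and by 0.70 with permanent-MCAO, and both were called. Syk (0.70) and Dapp1 (0.85) were called with reperfused-MCAO and not with permanent-MCAO (0.40 and 0.27), a difference that was not tested.

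Of 5 genes of antibody-secreting plasma cells, 2 rose and 1 fell with MCAO averaged over both tPA states, where 15.4% of all probe sets were called. Prdm1, the regulator that ends the B cell program and is also used by T and myeloid cells, rose by 0.80 (adjusted p = 0.0200). Xbp1, a factor for secretion, rose by 0.29 (adjusted p = 0.150). Mzb1 differed by 0.22 and Tnfrsf17, at a mean level of 2.67, by -0.01, and neither was called. Sdc1, the plasma cell surface marker CD138, fell by 0.38 at a mean level of 2.53. The array resolves little at both levels. In untreated rats against anesthesia 0 of the 5 were called at p of at most 0.01, where 6.00% (reperfused-MCAO) and 2.78% (permanent-MCAO) of all probe sets were. Prdm1 differed there by 1.08 and 0.56, Xbp1 by 0.60 and 0.45, and Sdc1 by -0.10 and -0.02. With tPA and no MCAO against anesthesia, Sdc1 differed by 0.63 and was not called. The 2 measured immunoglobulin chain genes, Iglc1 and Jchain, were not called in any comparison, and 5 B cell precursor genes have no probe set in the annotation. With tPA and no MCAO against anesthesia, 2 of the 9 surface and survival genes were called, where 13.7% of all probe sets were. These were Cd37 and Cd81, tetraspanins that other blood cells carry too. They rose by 0.58 (adjusted p = 0.0111) and 0.65 (adjusted p = 0.0260), beside a median of 0.24 for all probe sets with a mean of at least 4. The interactions of Cd37 and Cd81, -0.70 and -0.79, were called, where 21.03% of all probe sets were.

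Markers of other blood cells moved in the same comparison, in which 15.4% of all probe sets were called. With MCAO averaged over both tPA states, 7 of 8 T cell genes fell (median -0.49). Of the others, 4 of 6 neutrophil genes rose (median 0.65), as did 4 of 6 NK cell genes (0.62), 4 of 5 platelet genes (0.64), 2 of 5 red cell genes (0.30) and 1 of 5 monocyte genes (0.06). The comparisons of untreated rats with anesthesia again used an unadjusted limma p of at most 0.01. They called 6.00% of all probe sets with reperfused-MCAO and 2.78% with permanent-MCAO. In them 0 of 8 T cell genes were called with reperfused-MCAO (median -0.14) or permanent-MCAO (-0.12). All 5 red cell genes were negative in both (medians -0.30 and -0.06), with 1 called lower with reperfused-MCAO. There 1 of 5 platelet genes rose in the reperfused-MCAO rats (median 0.33) and 0 in the permanent-MCAO rats (0.18), and 2 of 6 neutrophil genes rose in each (1.35 and 0.80). With tPA and no MCAO against anesthesia, 7 of 8 T cell genes rose (median 0.76), and 2 of 5 red cell genes (-1.41) and 3 of 5 platelet genes (-0.67) fell. That comparison called 13.7% of all probe sets, and those with a mean of at least 4 had a median of 0.24. With the hybridization control signal as a covariate, it called 2.59% of all probe sets. The mean level of the T cell genes ranged from 10.08 to 10.57 in the tPA, no MCAO rats, above 9.29 to 9.75 with anesthesia. It ranged from 8.89 to 9.60 with reperfused-MCAO, 8.80 to 9.62 with tPA added, 9.17 to 9.75 with permanent-MCAO, 8.51 to 10.26 with tPA added, and 9.69 to 10.07 in naive rats. So the mean of the T cell genes did not overlap between the tPA, no MCAO rats and the anesthesia rats, and that of the 7 B cell genes did. In these respective groups the SD was 0.175 and 0.183 for the T cell genes and 0.234 and 0.482 for the B cell genes. Overlap depends on this spread as well as on the difference. How many of all probe sets separate these groups in the same way is not given here. The neutrophil genes ranged from 8.14 to 9.46 with anesthesia, 9.10 to 11.52 with reperfused-MCAO and 9.17 to 10.40 with permanent-MCAO. For comparison, the mean of the 7 B cell genes ranged from 7.87 to 9.19 with anesthesia, 8.20 to 8.82 with tPA and no MCAO, 6.97 to 8.60 with reperfused-MCAO, 7.58 to 8.99 with permanent-MCAO, and 7.22 to 8.46 with permanent-MCAO and tPA. The lowest mean of any of these lists on any array was 6.39, of the monocyte genes. The part of cell composition in the fall of Fcer2, Cr2 and Cd79b was not tested.

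The hybridization control signal also moved with some of the genes. Over 42 arrays Fcer2 was lower where that signal was higher, with Pearson's r of -0.54 (permutation p = 8e-05, adjusted over the 7 genes 0.00056) and Spearman's rho of -0.55 (permutation p = 0.00016, adjusted 0.00112). Without the 2 arrays farthest from the median signal r was -0.41, with group means removed -0.47, and without the tPA, no MCAO group -0.33. For Bcl11a, r was -0.33 (permutation p = 0.0281, adjusted 0.0983) and rho -0.50 (adjusted 0.00322). Cd79b, Ms4a1 and Cr2 had r of -0.29, -0.26 and -0.21 (permutation p adjusted 0.135, 0.170 and 0.263) and rho of -0.47, -0.43 and -0.36 (adjusted 0.00422, 0.00765 and 0.0277). Neither Cd22 nor Vpreb3 passed an adjusted p of 0.05 with either coefficient. These r and rho values pool the 7 groups, so differences between groups enter them. With group means removed r was -0.23 for Bcl11a, -0.22 for Cd79b, -0.28 for Ms4a1 and -0.25 for Cr2. It was -0.06 for Cd22 and -0.27 for Vpreb3, and no p-value is given for these. With the signal as a covariate Fcer2 and Cr2 stayed called with MCAO, at -0.54 and -0.49, and Cd79b, at -0.42, did not, where 9.45% of all probe sets were called. Fcer2 no longer passed an adjusted p of 0.05 (limma, adjusted p = 0.370). The Fcer2 difference with tPA and no MCAO against anesthesia, 0.77 without the covariate, was -0.10 with it. The part of this signal in the differences between groups was not tested.

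**Figure D5:**
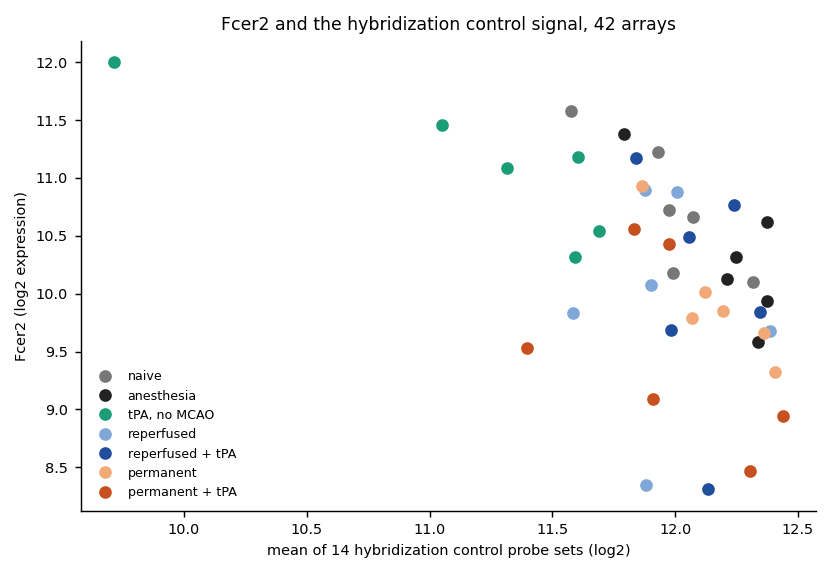
Fcer2 level (vertical axis, log2) against the mean of 14 hybridization control probe sets (horizontal axis, log2) on 42 arrays, colored by group. The tPA, no MCAO arrays have the lowest mean signal, with 1 of them at 9.72, and the highest mean Fcer2 level. They overlap other groups on both axes, and r over all arrays is -0.54.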

How the data were processed

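Whole blood was drawn by cardiac puncture into PAXgene tubes, RNA was purified and amplified with the NuGEN Ovation kit, and each sample was hybridized to 1 Affymetrix Rat Genome 230 2.0 array. The deposited values are log2 expression levels that the authors made by GC-RMA in Partek, and scans were not used. Gene symbols came from the platform annotation, updated through RefSeq (GRCr8): 20826 probe sets have 1 symbol, 436 several and 9780 none. After 57 control probe sets were set aside, limma 3.58.1 in R 4.3.3 (lmFit, eBayes) was fitted to 31042 probe sets. A fit of all 42 arrays had terms for tPA, MCAO, anesthesia and tPA by MCAO, with calls at p at most 0.05 and fold at least 1.2, and comparisons of 2 groups used their own 12 arrays (24 for the difference of tPA effects) and p at most 0.01. Adjusted p-values are Benjamini-Hochberg over all probe sets. Exact permutation tests are two-sided over 924 divisions, and permutation p-values of correlations used 100000 draws. Intervals are limma's 95% intervals. Alternatives were an intensity trend, quantile normalization, no dim probe sets, the hybridization control signal as a covariate, a replicate block, the methods' test, the mean of a gene's probe sets, another coding of anesthesia, fewer groups and each array left out. The fits were tested on simulated data. The genes and lists were chosen with earlier results of these data known. Named are the 9 genes, the genes of each B cell list with the smallest p, and the 10 most alike in pattern. Fcmr, Bank1, Mzb1, Tnfrsf17 and values of further probe sets stand beside them. No batch is named in the labels, and no arrays were duplicates (highest r between arrays 0.995). The number of arrays limits the precision.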

Additional observations from a re-analysis of the deposited data

Results flagged for a closer look

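Within groups of 6, single arrays far from the others were looked for in the 7 genes and in the hybridization control signal, 56 groups in all, and 6 were found. For independent, normally distributed values chance gives about 1 in 20 groups. The 7 genes move together on the same arrays and Vpreb3 lies mostly under 4, so the number found cannot be read against that rate. Cr2 stood at 8.38 in permanent-MCAO replicate 3, with the other 5 at 6.86 to 7.43. Vpreb3 stood at 5.05 in anesthesia replicate 1 (others 3.04 to 3.71), at 4.46 in permanent-MCAO replicate 3 (others 2.99 to 3.27) and at 4.00 in tPA, no MCAO replicate 6 (others 3.00 to 3.21). The hybridization control signal was 11.8 in anesthesia replicate 1 (others 12.2 to 12.4) and 9.72 in tPA, no MCAO replicate 2 (others 11.1 to 11.7).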

How the results depend on the processing

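With the hybridization control signal as a covariate, 1 gene (Vpreb3, -0.43) was called for tPA averaged over rats without and with MCAO, 1 (Cr2, -1.39) for reperfused-MCAO and 1 (Cr2, -0.63) for permanent-MCAO against anesthesia, and the median interaction was -0.00015. All probe sets were called at 1.62%, 6.00% and 3.48% in these 3 fits. For MCAO averaged over both tPA states, 0 genes were called with the tPA, no MCAO rats counted as not anesthetised (7.82% of all probe sets), and 1 without that group (10.6%). In the first of these Fcer2 was -0.65, Cr2 -0.52 and Cd79b -0.44, with standard errors of 0.401, 0.327 and 0.325 against 0.263, 0.214 and 0.213. Leaving out 1 array at a time, the genes called numbered 3 to 5 for MCAO averaged over both tPA states, 0 to 3 for the interaction (3 without reperfused-MCAO replicate 6, 2 without anesthesia replicate 1 or reperfused-MCAO with tPA replicate 2, and 1 without reperfused-MCAO with tPA replicate 4, permanent-MCAO replicate 2, permanent-MCAO with tPA replicate 5 or tPA, no MCAO replicate 1), 0 to 1 for tPA in permanent-MCAO (without permanent-MCAO with tPA replicate 5) and for tPA without MCAO (without anesthesia replicate 1), and 0 for the others. The median difference ranged from -0.46 to -0.32 for MCAO, -0.08 to 0.04 for tPA averaged, -0.66 to -0.42 for the interaction, -0.23 to 0.24 for tPA in reperfused-MCAO, -0.64 to -0.26 for tPA in permanent-MCAO, 0.04 to 0.25 for tPA without MCAO, -0.40 to -0.06 for reperfused-MCAO, -0.44 to -0.12 for permanent-MCAO, -0.30 to -0.08 for anesthesia against naive, and 0.27 to 0.69 for the difference of tPA effects. The 5 calls for MCAO came without reperfused-MCAO with tPA replicate 2 or permanent-MCAO with tPA replicate 5, and added Ms4a1 and Cd22. With the replicate number as a block, 3 genes were called for MCAO (median -0.39) and no other call changed. Same-numbered arrays deviated with r from -0.38 to 0.36 (median 0.0025 over 36 pairs of arrays). Over all groups the median r was -0.040 for same-numbered and 0.0048 for differently numbered arrays. These medians show no pairing by number, and they cannot tell whether single pairs were handled together. Of 522 values of single genes under settings other than leaving out an array, 487 kept direction and call, 22 uncalled values changed sign, 6 gained and 7 lost a call. No called value changed sign. Dim signal limits Vpreb3, and spread between rats limits the other genes.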
